A study of Mus musculus with 8 samples.

Results

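The genes described here encode the subunits of Polycomb repressive complexes 1 and 2 (PRC1 and PRC2) and of the related deubiquitylase complex PR-DUB. Members were chosen by name, with earlier results of these data known. They are 36 genes, of which 11 belong to PRC2, 22 to PRC1 and 3 to PR-DUB. A member was measured where the array holds a probe set annotated to its symbol alone, and the brightest such probe set stands for the gene. This left 35 of the 36, among 18193 genes on the array. Rybp was dropped, because its probe set is annotated to Rybp and Rybp-ps together. In 27 of the 35 the highest group mean was above 126.2, the median of that quantity over all genes. The 8 dim members, whose changes the scale used here understates, were Phf1, Phf19, Ring1, Pcgf1, Cbx8, Phc3, Scmh1 and Bcorl1.

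Polycomb complexes keep developmental genes silent in cells that do not use them. PRC2 methylates histone H3 at lysine 27 through Ezh2 or Ezh1, together with Eed, Suz12 and a histone-binding Rbbp protein, and accessory subunits such as Mtf2 and Jarid2 bring it to CpG-rich DNA. PRC1 attaches ubiquitin to histone H2A through Rnf2 or Ring1, paired with a PCGF protein. Canonical PRC1 holds a CBX subunit, which binds the mark made by PRC2, and a PHC subunit, while variant PRC1 holds Rybp or Yaf2 in place of CBX. PR-DUB removes the ubiquitin mark. In embryonic stem (ES) cells, a pluripotent cell culture derived from blastocysts, many of the silenced genes are regulators of later lineages.

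Transcript levels were measured on 8 oligonucleotide arrays of male mouse ES cells of strain 129S4/Svjae, agouti phenotype, in medium with leukemia inhibitory factor. All cells carried a lentiviral short hairpin RNA, were puromycin selected and were passaged a few times before RNA was taken. The hairpin was directed against GFP in 3 control samples, against Jmjd2b in 3 and against Jmjd2c in 2, and the study's title asks for the role of these 2 enzymes in ES cell identity. The array annotation calls these genes Kdm4b and Kdm4c; their products remove methyl groups, mainly from lysine 9 of histone H3. How many hairpins were used per gene, and whether replicates were separate infections, is not stated in the sources used here, so p-values measure only how these samples scatter, and that scatter may be technical. In a bulk sample, fewer cells expressing a gene and less of its RNA per cell cannot be told apart.

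The targets of the hairpins were read first: Kdm4b showed a log2 change of -3.34 under its hairpin (limma, adjusted p = 7.8e-05), and Kdm4c one of -2.23 under its own (adjusted p = 0.0069). The 12 ES cell markers were present in all groups, with summed intensities of 64800 to 66600 in the controls, 57000 to 61200 in the Jmjd2b group and 59000 to 59300 in the Jmjd2c group. These sums hide changes of single markers. At an adjusted p under 0.05 in limma, 3 of the 12 were higher and 5 lower in the Jmjd2b knockdown (66.7%, against 24.4% of all genes). In the Jmjd2c knockdown 0 were higher and 2 lower (16.7%, against 9.53% of all genes). Fibroblast markers, which would mark feeder cells, summed over 14 genes to 807 to 894, 688 to 709 and 586 to 689 in the same order. In 13 of the 14 the highest group mean was not above the median over all genes. By the same test 4 were higher and 2 lower in the Jmjd2b knockdown (42.9%), and 1 was higher and 3 lower in the Jmjd2c knockdown (28.6%). The part of feeder cells in the results was not tested. Control arrays 1 and 2 and Jmjd2b knockdown array 2 held 412 to 455 values of exactly 1, while the other 5 arrays held 7 to 11. This array type was entered as a block, and groups were also set against each other within each type. The first type holds 1 Jmjd2b array and the second 1 control array, so changes within a type are given as values without a test, that of the first type first. RNA quality was read from the 3′ over 5′ ratio of actin, which was 1.45 to 1.63 (controls), 1.31 to 1.42 (Jmjd2b) and 1.43 to 1.48 (Jmjd2c). Its part in the results was not tested. No control shared the set of arrays, recognised by identical values, in which both Jmjd2c knockdown arrays lay.

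In the Jmjd2b knockdown the catalytic subunits of PRC2 and its accessory subunits Mtf2 and Phf19 fell, while 4 subunits of PRC1, Bmi1, Phc2, Yaf2 and E2f6, rose. Of 11 PRC2 members 1 rose and 4 fell, and of 21 measured PRC1 members 4 rose and 0 fell. A gene is said to rise or fall where its adjusted p in limma, corrected by the Benjamini-Hochberg method over all 18193 genes, was under 0.05. The background is high: 24.4% of all genes passed, 11.5% upward and 12.9% downward. The 9 members that passed are 25.7% of the 35, close to that share, and the median log2 change was -0.22 for PRC2 and 0.11 for PRC1 against -0.03 for all genes. More of the brighter genes pass. With only the genes above the median level in the fit, 5 of 9 PRC2 members, 5 of 15 PRC1 members and 3869 of 9096 genes passed. In the Jmjd2c knockdown 0 PRC2 members rose and 1 fell, and 4 PRC1 members rose and 0 fell, where 9.53% of all genes passed, 4.28% upward and 5.25% downward. Above the median level 1 of 9 PRC2 members, 4 of 15 PRC1 members and 1937 of 9096 genes passed there. Arrays of the knockdown and the control did not overlap in 7 of 11 PRC2 and 10 of 21 PRC1 members in the Jmjd2b knockdown (44.8% of all genes), and in 7 and 7 in the Jmjd2c knockdown (38.6% of all genes). The median log2 changes in the Jmjd2c knockdown were -0.19 for PRC2 and 0.11 for PRC1 against -0.02 for all genes. Both comparisons use the same 3 control arrays, so their values are set side by side and are not independent of each other.

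**Figure D1:**
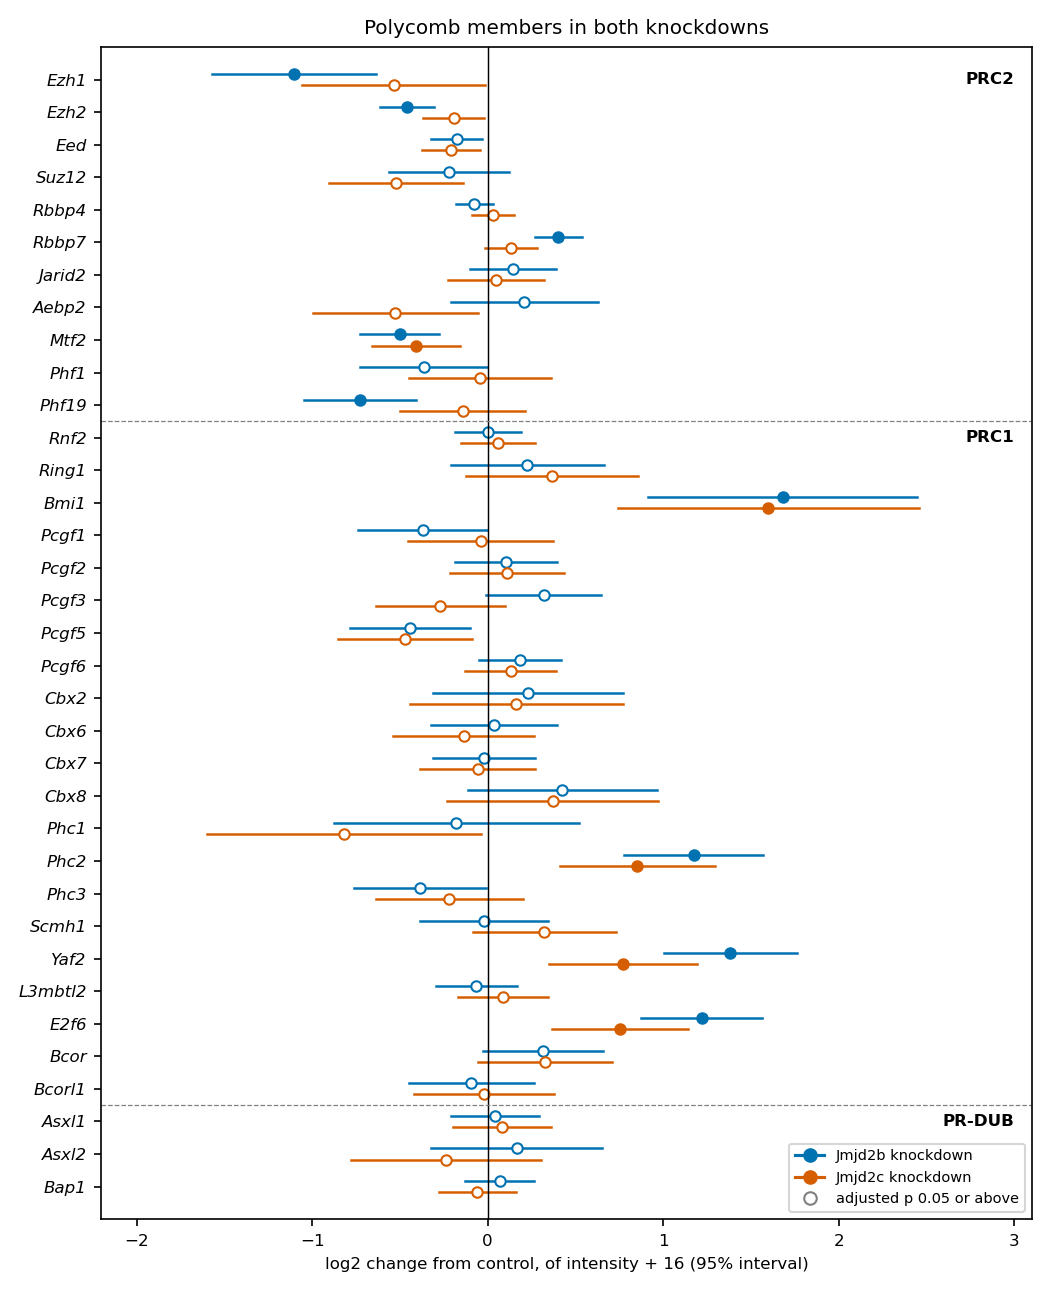
Log2 change from the control, with its 95% interval, of the 35 measured members in the Jmjd2b knockdown (blue) and the Jmjd2c knockdown (orange), on log2(intensity + 16); filled points passed the test. In the Jmjd2b knockdown the filled points run from -1.10 (Ezh1) to 1.68 (Bmi1), and in the Jmjd2c knockdown from -0.41 (Mtf2) to 1.60 (Bmi1).

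Ezh2 is the main methyltransferase of PRC2 in dividing cells, and Ezh1 is its paralog. Their promoter windows are shown because both catalytic genes fell in the Jmjd2b knockdown. Each runs from 250 bases before to 50 bases after the start of transcription in RefSeq's GRCm38.p6, 5′ to 3′ on the strand of the gene. Capitals mark matches to the E2F letters TTTCGCGC or TTTGGCGC on either strand. The windows are chr6:47594981-47595280 on the minus strand for Ezh2 and chr11:101226414-101226713 on the minus strand for Ezh1.
Ezh2: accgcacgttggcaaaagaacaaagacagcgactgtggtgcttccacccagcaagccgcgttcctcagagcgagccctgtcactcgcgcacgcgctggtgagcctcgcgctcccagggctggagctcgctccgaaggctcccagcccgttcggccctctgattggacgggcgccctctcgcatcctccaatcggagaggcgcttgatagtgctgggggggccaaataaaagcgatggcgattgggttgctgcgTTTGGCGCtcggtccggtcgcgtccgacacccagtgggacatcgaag
Ezh1: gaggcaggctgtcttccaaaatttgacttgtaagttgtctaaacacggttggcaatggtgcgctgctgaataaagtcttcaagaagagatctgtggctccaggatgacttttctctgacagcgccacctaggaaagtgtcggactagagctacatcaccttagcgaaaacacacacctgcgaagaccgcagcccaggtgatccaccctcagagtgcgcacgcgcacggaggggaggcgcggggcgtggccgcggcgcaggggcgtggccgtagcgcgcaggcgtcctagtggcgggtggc
The Ezh2 window holds 1 E2F match, at bases 4 to 11 after the start, and the Ezh1 window holds none. Of 42 windows of 32 members, 1 (Ezh2; 2.38%) had such a match, and 0.813% of all 32851 windows did. A match is a description of the letters only.

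Ezh2 had intensities of 3456, 3739 and 3882 in the controls, 2691, 2584 and 2757 with Jmjd2b knocked down and 3255 and 3194 with Jmjd2c knocked down. All 5 knockdown arrays lay below all 3 controls, and the Jmjd2b arrays were the lowest. Ezh2 changed by -0.46 ± 0.07 log2 units (SE, as for all values after ± here; limma, adjusted p = 0.0012) in the Jmjd2b knockdown, which left 72.5% of the control mean. In the Jmjd2c knockdown it was -0.19 ± 0.08 (limma, adjusted p = 0.16). Compared within each array type, the change of Ezh2 in the Jmjd2b knockdown was -0.47 and -0.51.

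Ezh1 had 526, 551 and 601 in the controls, 266, 172 and 347 with Jmjd2b knocked down and 360 and 402 with Jmjd2c knocked down. Again no knockdown array reached the lowest control, and the 3 Jmjd2b arrays differed among themselves more than the controls did. With Jmjd2b knocked down, Ezh1 fell by 1.10 ± 0.21 log2 units (limma, adjusted p = 0.0042), to 46.8% of the control mean. In the Jmjd2c knockdown its value was -0.54 ± 0.23 (limma, adjusted p = 0.20). Of the 4 probe sets of Ezh1, the brightest alone passed. A dimmer one gave -0.44 (limma over all probe sets, adjusted p = 0.0865), and with probe sets that can detect related transcripts left out the value was -0.34 (limma, adjusted p = 0.38). The values of Ezh1 within the array types were -1.56 and -0.95.

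Eed, which binds the methyl mark and stimulates the enzyme, and Suz12, the scaffold of the complex, passed in neither comparison. Eed was 4397, 4561 and 4226 in the controls, 3796, 3883 and 3980 with Jmjd2b knocked down and 4009 and 3604 with Jmjd2c knocked down. All 5 knockdown arrays were below all controls, with log2 values of -0.18 ± 0.07 (limma, adjusted p = 0.0805) and -0.21 ± 0.07 (adjusted p = 0.11). Eed passed in the Jmjd2b knockdown with only the genes above the median level, with only those 2 groups in the fit, or without either Jmjd2c array.

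Suz12 was 3719, 4359 and 3938 in the controls, 3410, 3255 and 3636 with Jmjd2b knocked down and 2160 and 3565 with Jmjd2c knocked down. Each knockdown array was below each control, but Jmjd2c array 1 was far lower than array 2. The log2 values of Suz12 were -0.22 ± 0.15 (limma, adjusted p = 0.35) and -0.52 ± 0.17 (adjusted p = 0.0869). All 6 of its probe sets gave negative values in both comparisons, and 1 of them, the dimmest, passed in the Jmjd2c knockdown (-0.87; limma over all probe sets, adjusted p = 0.0168). With 1 of the 2 Jmjd2c arrays left out, the remaining one has no replicate, and its test takes the spread from the other groups and assumes that it varies like them. Without Jmjd2c array 2 the change of Suz12 in that knockdown was -0.88 and passed (limma, adjusted p = 0.0030), and without array 1 it was -0.16 and did not (adjusted p = 0.36).

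Rbbp7 and Rbbp4 are close relatives that bind histones in PRC2 and in other chromatin complexes, among them NuRD. Rbbp7 was the PRC2 member that rose. It was 7899, 8547 and 7962 in the controls, 10147, 11166 and 10961 with Jmjd2b knocked down and 8478 and 9364 with Jmjd2c knocked down. The Jmjd2b arrays lay above all other arrays, with a log2 change of 0.40 ± 0.06 (limma, adjusted p = 0.0011), and the Jmjd2c arrays overlapped the controls (0.13 ± 0.07; adjusted p = 0.27). Both probe sets of Rbbp7 rose in the Jmjd2b knockdown. Split by array type, the change was 0.44 and 0.40. Rbbp4 lay between 7950 and 8963 in all 8 arrays, with log2 values of -0.08 ± 0.05 and 0.03 ± 0.05. The 95% interval of the first was -0.18 to 0.03. Dimmer probe sets of Rbbp4 differed in direction in the Jmjd2b knockdown, at -0.215, -0.271 and 0.435. None of them passed (limma over all probe sets, adjusted p = 0.058, 0.073 and 0.061).

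**Figure D2:**
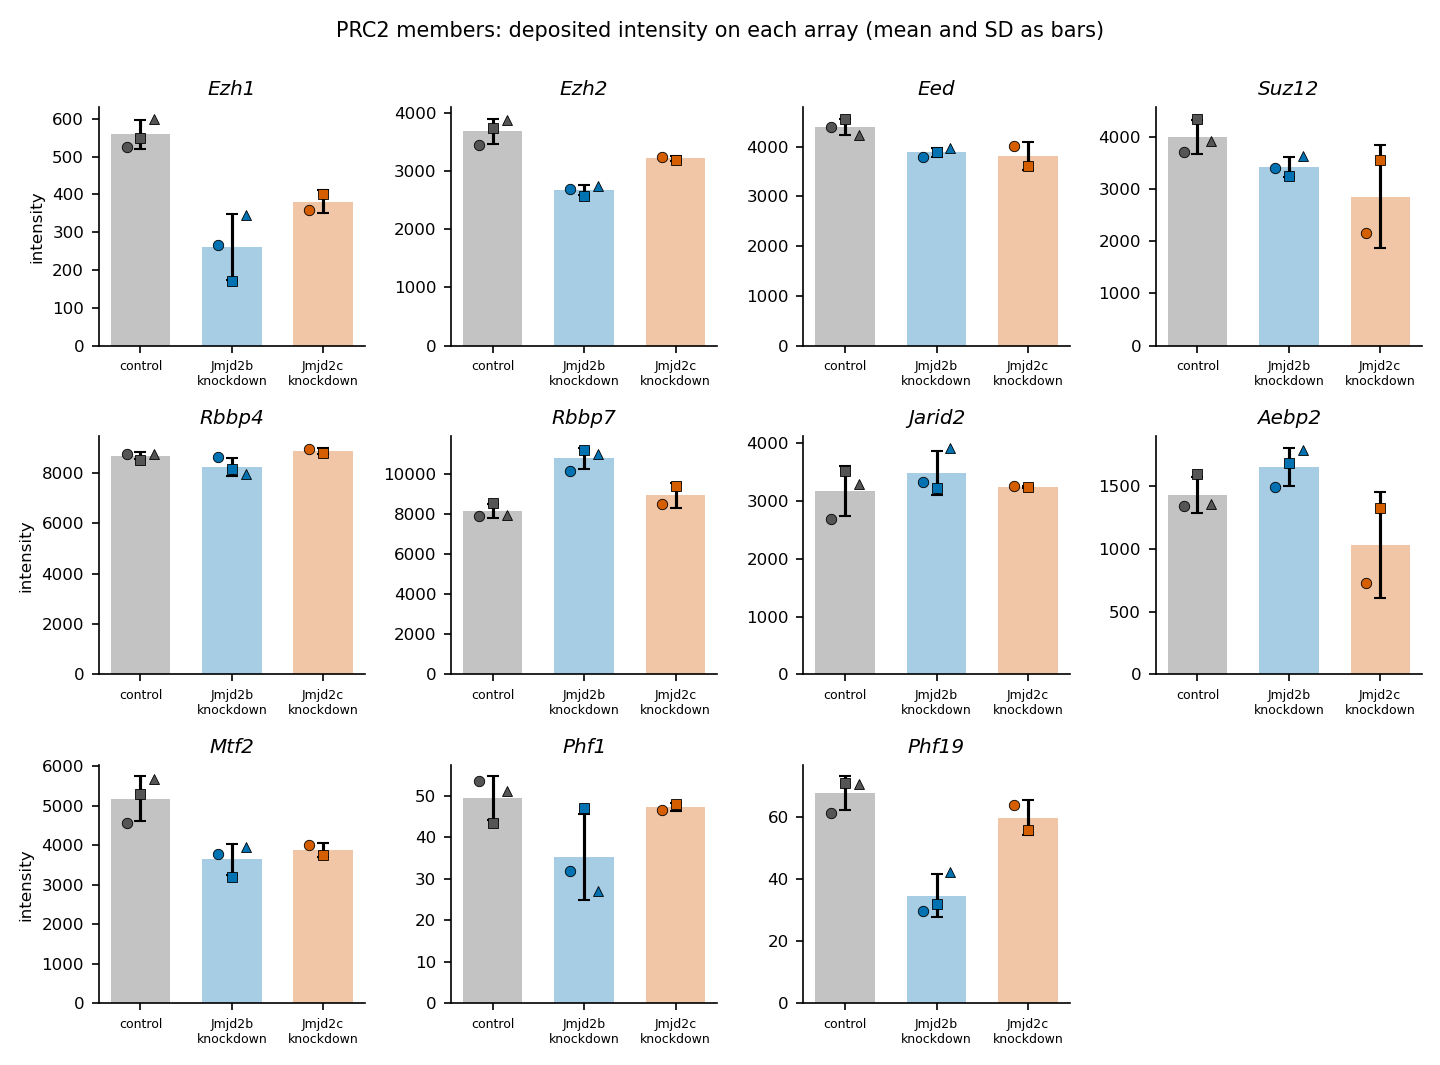
Intensity of PRC2 members on each array; bars are group means, error bars the SD (n = 3, 3 and 2), and symbols the replicate number. Ezh1, Ezh2, Mtf2 and Phf19 are lower and Rbbp7 is higher on the 3 Jmjd2b knockdown arrays than on any control array. Eed and Suz12, which did not pass the test, are also lower there than on any control array. Such arrays apart were found in 44.8% of all genes.

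The accessory subunits give PRC2 its place on chromatin. Mtf2, a Polycomb-like protein that binds unmethylated CpG, was the PRC2 member that passed in both knockdowns. It was 4547, 5293 and 5663 in the controls, 3771, 3204 and 3958 with Jmjd2b knocked down and 3996 and 3760 with Jmjd2c knocked down. All 5 knockdown arrays lay below the controls, and those of the 2 knockdowns overlapped each other. The log2 change of Mtf2 was -0.50 ± 0.10 (limma, adjusted p = 0.0054) in the Jmjd2b knockdown and -0.41 ± 0.11 (adjusted p = 0.0494) in the Jmjd2c knockdown.

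The second of these calls is fragile: with the replicate number as a block it was -0.34 (limma, adjusted p = 0.092), and it held in 6 of 20 other settings. It was lost without Jmjd2c array 1 (-0.45), Jmjd2c array 2 (-0.36), control array 2 (-0.39), control array 3 (-0.34) or Jmjd2b array 1 or 3. Within the array types the change of Mtf2 in the Jmjd2b knockdown was -0.61 and -0.55, and in the Jmjd2c knockdown, within the type that holds it, -0.54.

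Mtf2 has 6 probe sets, and all 5 above the median level fell in the Jmjd2b knockdown when every probe set was fitted alone, 2 of them also in the Jmjd2c knockdown. The brightest was not among those 2 (limma over all probe sets, adjusted p = 0.0557). The third brightest probe set read 2642, 2540 and 2831 in the controls, 1228, 1102 and 1170 with Jmjd2b knocked down and 2010 and 1801 with Jmjd2c knocked down. Here the 3 groups did not overlap at all. Its log2 change was -1.18 ± 0.09 in the Jmjd2b knockdown (limma over all probe sets, adjusted p = 4.9e-05) and -0.48 ± 0.10 in the Jmjd2c knockdown (adjusted p = 0.0171). The direct comparison of the knockdowns gave 0.70 ± 0.10 for this probe set (limma, adjusted p = 0.0202), while the brightest one gave 0.09 ± 0.11 (adjusted p = 0.81 in the same fit). The parts of the transcript these probe sets detect were not compared here.

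Phf19 and Phf1 are the other Polycomb-like proteins, and both were dim. Phf19 was 61.4, 70.9 and 70.8 in the controls, 29.7, 31.9 and 42.5 with Jmjd2b knocked down and 63.9 and 55.8 with Jmjd2c knocked down. The Jmjd2b arrays lay below all others (log2 change -0.73 ± 0.14; limma, adjusted p = 0.0049), and the Jmjd2c arrays overlapped the controls (-0.14 ± 0.16; adjusted p = 0.66). Averaged with its other, still dimmer probe set, Phf19 gave -0.19 in the Jmjd2b knockdown and did not pass (limma, adjusted p = 0.27), and within the array types the values were -0.77 and -0.75. Phf1 lay between 27 and 53.5 on all arrays, with groups that overlapped and log2 values of -0.36 ± 0.16 (adjusted p = 0.14) and -0.04 ± 0.18.

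Jarid2, which helps recruit PRC2 in ES cells, had 2688, 3518 and 3301 in the controls, 3327, 3221 and 3924 with Jmjd2b knocked down and 3262 and 3237 with Jmjd2c knocked down. All 3 groups overlapped, with log2 values of 0.14 ± 0.11 and 0.05 ± 0.12. Aebp2, a zinc finger cofactor often found with Jarid2, had 1340, 1595 and 1360 in the controls, 1492, 1684 and 1792 with Jmjd2b knocked down and 731 and 1329 with Jmjd2c knocked down. Its Jmjd2c arrays lay below the controls, the first by far and the second barely (log2 value -0.53 ± 0.21; limma, adjusted p = 0.16). Aebp2 passed in that comparison without array 2 (-0.95; limma, adjusted p = 0.0064), a test of 1 array with the spread of the other groups. Another, dimmer probe set of Aebp2 gave -0.65 there and passed (limma over all probe sets, adjusted p = 0.0346).

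The catalytic pair of PRC1 showed no called change. Rnf2 (Ring1b), the main ubiquitin ligase of PRC1 in ES cells, had 3753, 3641 and 3514 in the controls, 3794, 3625 and 3519 with Jmjd2b knocked down and 3393 and 4215 with Jmjd2c knocked down. The first 2 groups covered nearly the same range (log2 value 0.00 ± 0.08, 95% interval -0.18 to 0.19), and the 2 Jmjd2c arrays lay on opposite sides of all controls (0.06 ± 0.09). Ring1, its paralog, was dim, between 35.8 and 79.5 on all arrays.

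PCGF proteins define the 6 kinds of PRC1, and of the 6 genes Bmi1 rose in both knockdowns while the other 5 did not pass. Bmi1 (Pcgf4), known as a repressor of the Cdkn2a locus and for self-renewal of tissue stem cells, was low in the controls at 90.8, 74.7 and 58.1. It was 226, 263 and 335 with Jmjd2b knocked down and 140 and 454 with Jmjd2c knocked down. All knockdown arrays were above all controls, and the Jmjd2c arrays were the lowest and the highest of the 5. The log2 change was 1.68 ± 0.34 (limma, adjusted p = 0.0060) in the Jmjd2b knockdown and 1.60 ± 0.38 (adjusted p = 0.030) in the Jmjd2c knockdown. A second, dim probe set of Bmi1 passed in neither, at 1.10 (limma over all probe sets, adjusted p = 0.088) and 1.22 (adjusted p = 0.149). On that probe set Jmjd2c array 1 (37.5) lay among the controls (42.5, 27.3 and 15.3). In the 2 array types Bmi1 differed in the Jmjd2b knockdown by 1.5 and 1.98. In the Jmjd2c knockdown the call was lost without Jmjd2c array 2 (0.80), without any single control array (1.46 to 1.73) and without Jmjd2b array 2, and without Jmjd2c array 1 the change was 2.39.

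Pcgf2 (Mel18), the close relative of Bmi1 in canonical PRC1, lay between 203 and 264 on all arrays, with log2 values of 0.11 ± 0.13 and 0.11 ± 0.15. Pcgf6, the subunit of a variant complex with E2f6 and L3mbtl2, had 1394, 1563 and 1500 in the controls, 1730, 1716 and 1620 with Jmjd2b knocked down and 1836 and 1442 with Jmjd2c knocked down. Its Jmjd2b arrays lay just above the controls, without passing (log2 value 0.18 ± 0.10; limma, adjusted p = 0.24).

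Pcgf5 had 829, 813 and 873 in the controls, 585, 512 and 766 with Jmjd2b knocked down and 538 and 670 with Jmjd2c knocked down. All 5 knockdown arrays of Pcgf5 were below the controls, with values of -0.44 ± 0.15 (limma, adjusted p = 0.062) and -0.47 ± 0.17 (adjusted p = 0.12). The first passed in 8 of 21 other settings, among them array type or array set as a block. A dimmer probe set of Pcgf5 gave -0.30 and 0.25 and passed in neither (limma over all probe sets, adjusted p = 0.32 and 0.57). On it Jmjd2c array 2 (230) was above the controls (138, 140 and 156). Pcgf3, which forms the same kind of complex, did not pass either, with log2 values of 0.32 ± 0.15 (limma, adjusted p = 0.15) in the Jmjd2b knockdown and -0.27 ± 0.16 in the Jmjd2c knockdown. Pcgf1, the partner of Kdm2b and Bcor, was dim, between 41.1 and 80.5 on all arrays, and did not pass (-0.37 ± 0.16, adjusted p = 0.14, and -0.04 ± 0.18).

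Of the 4 CBX subunits, the readers of the PRC2 mark, 0 passed in either knockdown (limma; 0 also at an unadjusted p under 0.05, which 35.4% of all genes had in the Jmjd2b and 23.9% in the Jmjd2c knockdown). Cbx7, the main CBX of ES cells, had 735, 928 and 914 in the controls, 793, 771 and 979 with Jmjd2b knocked down and 809 and 832 with Jmjd2c knocked down. The groups of Cbx7 overlapped, with log2 values of -0.02 ± 0.13 and -0.06 ± 0.15. Cbx6, its neighbour on chromosome 15, had values of 0.04 ± 0.16 and -0.14 ± 0.18.

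Cbx2 and Cbx8, neighbours on chromosome 11, had Jmjd2b arrays above all controls. Cbx2 was 802, 788 and 732 in the controls, 966, 887 and 875 with Jmjd2b knocked down and 565 and 1330 with Jmjd2c knocked down. Cbx8, which is dim, was 44.8, 39.5 and 37.1, then 49.1, 60.2 and 71.2, then 34.7 and 88.8 in the same order. In both genes Jmjd2c array 1 was the lowest of all 8 arrays and array 2 the highest. Neither passed: the values in the Jmjd2b knockdown were 0.23 ± 0.24 for Cbx2 (limma, adjusted p = 0.56) and 0.42 ± 0.24 for Cbx8 (adjusted p = 0.25).

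PHC proteins polymerise and draw Polycomb sites together. Phc2 was 287, 284 and 266 in the controls, 658, 717 and 576 with Jmjd2b knocked down and 398 and 666 with Jmjd2c knocked down. No knockdown array of Phc2 came near the controls, and its changes were 1.17 ± 0.18 (limma, adjusted p = 0.0013) and 0.85 ± 0.20 (adjusted p = 0.027). Both probe sets of Phc2 rose in both knockdowns. Split by array type, the change of Phc2 in the Jmjd2b knockdown was 1.28 and 1.16. The call in the Jmjd2c knockdown was lost without Jmjd2c array 2 (0.49) or any single control array (0.82 to 0.87).

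Phc1, the PHC protein best known in ES cells, had 3342, 4072 and 3811 in the controls, 3081, 3062 and 3775 with Jmjd2b knocked down and 3700 and 1202 with Jmjd2c knocked down. Jmjd2c array 2 stood far below all others while array 1 lay among the controls (log2 value -0.82 ± 0.35; limma, adjusted p = 0.19). The value of Phc1 was -1.62 without array 1 and -0.01 without array 2, each from a single Jmjd2c array. In the Jmjd2b knockdown Phc1 had -0.18 ± 0.31, with a 95% interval of -0.88 to 0.52. Phc3 and Scmh1, a sterile alpha motif protein bound to PHC, were dim and did not pass. Phc3 gave -0.39 ± 0.17 and -0.22 ± 0.19, and Scmh1 -0.02 ± 0.16 and 0.32 ± 0.18.

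**Figure D3:**
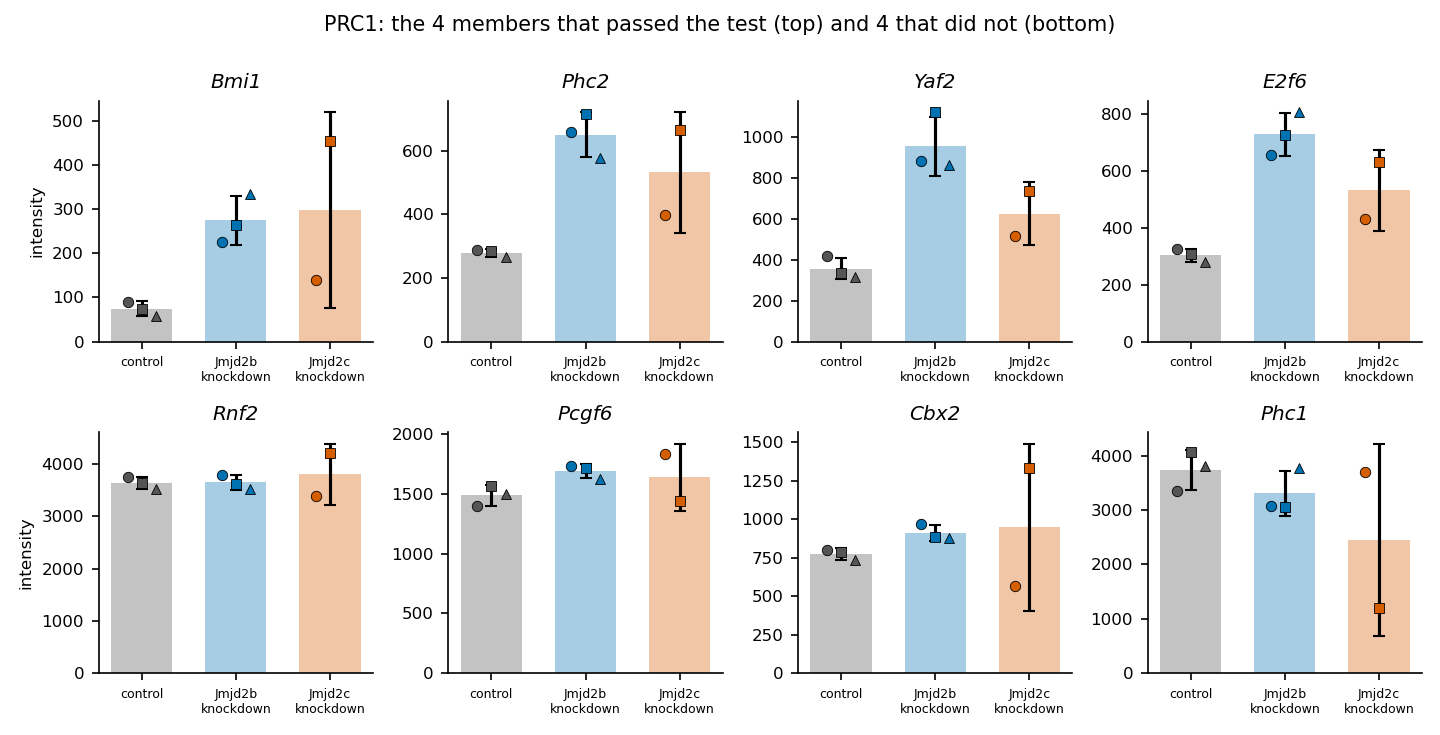
Intensity on each array of the 4 PRC1 members that passed the test in the Jmjd2b knockdown (top) and of 4 that did not (bottom); bars are group means, error bars the SD (n = 3, 3 and 2), and symbols the replicate number. In the top row every knockdown array is above every control array, and in Bmi1 the 2 Jmjd2c arrays stand at 140 and 454.

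In the Jmjd2b knockdown, 2 subunits of variant PRC1 gave the PRC1 calls with the smallest p. Yaf2, the paralog of Rybp that stimulates the ligase, had 417, 335 and 318 in the controls, 883, 1123 and 864 with Jmjd2b knocked down and 517 and 736 with Jmjd2c knocked down. The 3 groups of Yaf2 did not overlap, with the Jmjd2c arrays between the others. The changes were 1.38 ± 0.17 (limma, adjusted p = 4.3e-04) and 0.77 ± 0.19 (adjusted p = 0.032), and both probe sets of Yaf2 rose in both knockdowns.

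E2f6, a repressive E2F protein that brings variant PRC1 to promoters, had 325, 307 and 280.5 in the controls, 656, 728 and 807 with Jmjd2b knocked down and 432 and 633 with Jmjd2c knocked down. Its groups were likewise apart, with the Jmjd2c arrays in the middle. The changes were 1.22 ± 0.15 (limma, adjusted p = 5.3e-04) and 0.75 ± 0.17 (adjusted p = 0.026). A second, dim probe set of E2f6 gave 0.10 and 0.09. Inside each array type the changes in the Jmjd2b knockdown were 1.55 and 1.41 for Yaf2. For E2f6 they were 1.16 and 1.33.

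In the Jmjd2c knockdown the call of E2f6 was lost without Jmjd2c array 2 (0.49) or any single control (0.70 to 0.80). That of Yaf2 was lost without Jmjd2c array 2 (0.53), without control array 2 (0.73) or 3 (0.70), and without Jmjd2b array 1. With the replicate number as a block Yaf2 gave 0.70 there (limma, adjusted p = 0.061).

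The windows of Bmi1 and E2f6 are shown because these PRC1 genes rose in both knockdowns and each has a single window in the table, of the same span, build and direction as those above. Capitals mark the E2F letters and the E-box CACGTG. They are chr2:18676768-18677067 on the plus strand for Bmi1 and chr12:16810715-16811014 on the plus strand for E2f6.
Bmi1: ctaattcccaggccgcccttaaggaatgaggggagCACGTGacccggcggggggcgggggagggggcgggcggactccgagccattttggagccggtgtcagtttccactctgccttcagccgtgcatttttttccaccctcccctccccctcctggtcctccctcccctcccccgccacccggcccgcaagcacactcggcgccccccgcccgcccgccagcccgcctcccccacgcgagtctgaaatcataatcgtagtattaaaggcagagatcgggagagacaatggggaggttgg
E2f6: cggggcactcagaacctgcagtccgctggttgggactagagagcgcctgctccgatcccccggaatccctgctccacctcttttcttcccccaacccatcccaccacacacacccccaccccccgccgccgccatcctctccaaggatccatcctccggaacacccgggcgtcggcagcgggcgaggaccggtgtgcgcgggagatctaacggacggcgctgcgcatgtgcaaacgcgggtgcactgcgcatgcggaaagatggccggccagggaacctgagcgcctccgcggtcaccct
Bmi1 has an E-box match and E2f6 has no match to either set of letters. An E-box was present in 10 of 42 member windows (23.8%) and in 7.15% of all windows. Member windows were also richer in CpG, with a median of 23 CpG against 7 in all windows, and the E-box letters hold a CpG, so the part of CpG content was not tested. Phc2 has 3 windows in the table, 1 of them with an E-box, and Yaf2 was not among the genes matched.

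Of the other variant subunits, Bcor, a corepressor bound to Pcgf1, had 343, 375 and 346 in the controls, 435, 467 and 436 with Jmjd2b knocked down and 554 and 362 with Jmjd2c knocked down. Its Jmjd2b arrays lay above all controls without passing (0.32 ± 0.15; limma, adjusted p = 0.17), and its Jmjd2c arrays overlapped them (0.33 ± 0.17). A dimmer probe set of Bcor passed in both comparisons, at 0.61 (limma over all probe sets, adjusted p = 0.0126) and 0.79 (adjusted p = 0.0179). L3mbtl2, a methyl-lysine binding protein, had values of -0.06 ± 0.10 and 0.09 ± 0.11, and Bcorl1, dim, -0.09 ± 0.16 and -0.02 ± 0.18.

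By the probe set that stands for each, the 3 PR-DUB genes passed in neither comparison (limma, 0 also at an unadjusted p under 0.05). Of all genes, 35.4% had such an unadjusted p in the Jmjd2b and 23.9% in the Jmjd2c knockdown. Bap1, the deubiquitylase, had 1521, 1531 and 1545 in the controls, 1704, 1611 and 1512 with Jmjd2b knocked down and 1568 and 1381 with Jmjd2c knocked down. The Jmjd2b arrays of Bap1 overlapped the controls (0.07 ± 0.09, 95% interval -0.13 to 0.26). Asxl1, which activates Bap1, had 0.04 ± 0.11 and 0.08 ± 0.13, and its paralog Asxl2 0.16 ± 0.22 and -0.24 ± 0.24. In all 3 genes the 2 Jmjd2c arrays lay on opposite sides of all controls. Of the 3 probe sets of Asxl1, a dimmer one passed in the Jmjd2b knockdown (0.48; limma over all probe sets, adjusted p = 0.0261). Of the 5 of Asxl2, a dimmer one passed there in the other direction (-0.76; adjusted p = 0.0465). With the mean of all its probe sets Asxl2 also passed in the Jmjd2c knockdown.

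In the direct comparison of the knockdowns, 0 of 35 members differed by limma's test, where 0.467% of all genes did, and 8 of 35 had an unadjusted p under 0.05, against 13% of all genes. Of the 5 such members of PRC2, Ezh1, Ezh2 and Phf19 had positive log2 differences, Jmjd2c minus Jmjd2b, and Rbbp7 and Aebp2 negative ones. The 3 of PRC1 (Pcgf3, Yaf2 and E2f6) had negative ones. The lowest adjusted p was that of Rbbp7 (-0.27 ± 0.07; limma, adjusted p = 0.111). Over all members the differences ran from -0.73 ± 0.21 for Aebp2 (adjusted p = 0.16) to 0.59 ± 0.16 for Phf19 (adjusted p = 0.15). A missed threshold does not show that the knockdowns acted alike: the 95% interval was 0.04 to 1.09 for Ezh1, 0.09 to 0.44 for Ezh2 and -1.03 to -0.19 for Yaf2. For Bmi1 it was -0.94 to 0.77.

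The 2 Jmjd2c knockdown arrays differed from each other more than those of the other groups. In 4 of 35 members, Bmi1, Phc1, Cbx2 and Cbx8, they lay more than 1 log2 unit apart, which is 11.4% of members against 3.86% of all genes. In the controls and the Jmjd2b knockdown 0 members had so wide a range, but only 0.956% and 1.5% of all genes did. In 7 members (Rnf2, Cbx2, Cbx6, Cbx8, Asxl1, Asxl2 and Bap1) the 2 arrays lay on opposite sides of all controls, 20% of members against 13.4% of all genes. Kdm4c itself, the target, was at 11.1% of the control mean on Jmjd2c array 1 and 36.7% on array 2. The array with more Kdm4c left, array 2, had the higher Bmi1, Phc2, Yaf2 and E2f6 and the lower Phc1. Suz12 and Aebp2 were instead farther below the controls on array 1 (2160 and 731) than on array 2 (3565 and 1329). The part of the Kdm4c level in these values was not tested. Without control array 2 or 3 the test called 0 PRC1 members in the Jmjd2c knockdown. It called 1200 and 462 of all genes there, against 1733 with all arrays.

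**Figure D4:**
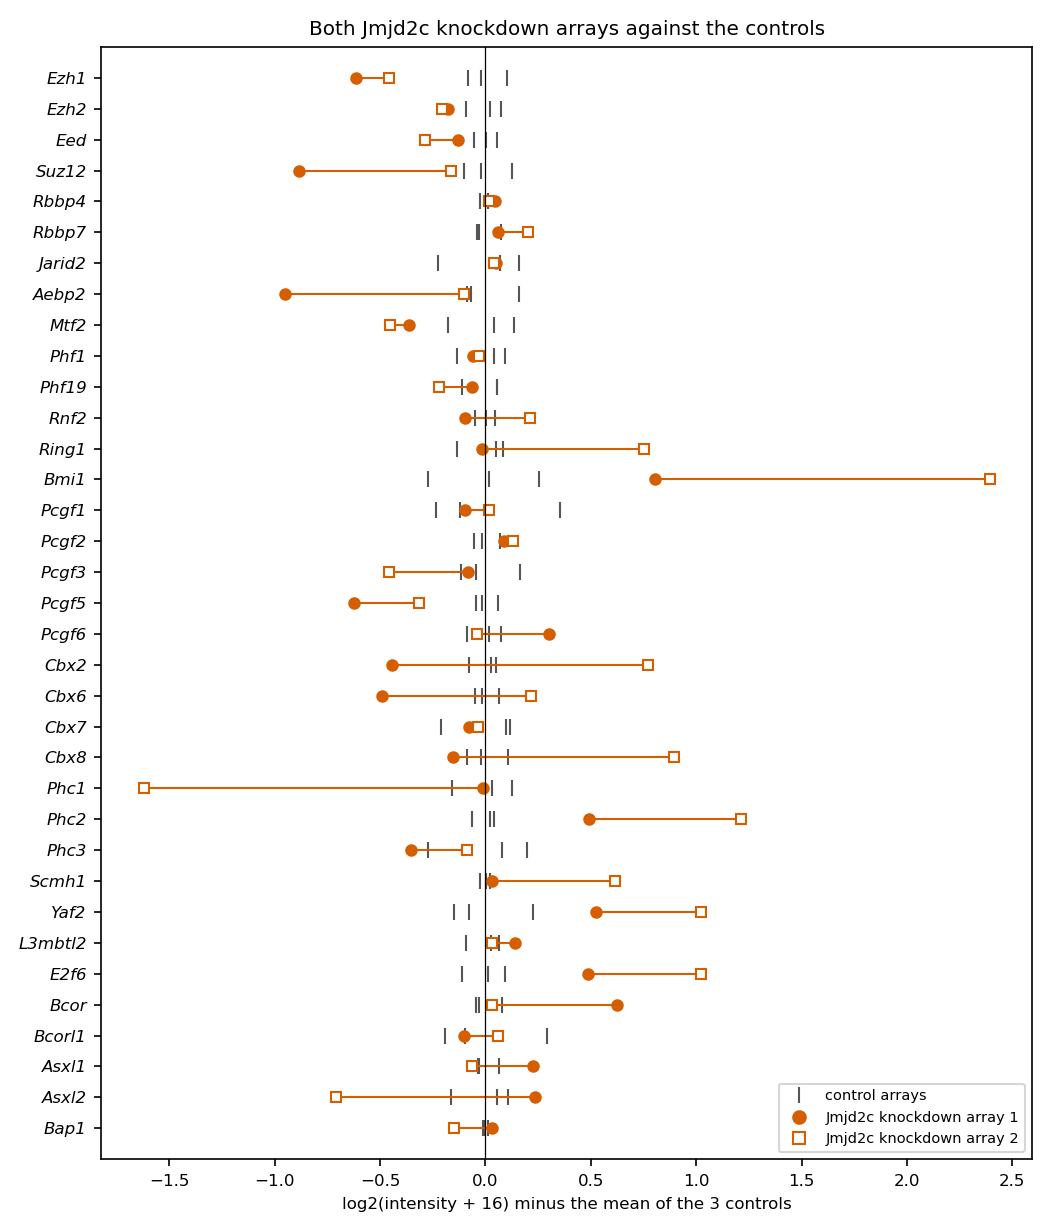
Log2(intensity + 16) of each member on Jmjd2c knockdown array 1 (filled circle) and array 2 (open square) minus the control mean, with the 3 control arrays as grey ticks. The pairs of Bmi1, Phc1, Cbx2 and Cbx8 are more than 1 log2 unit apart, and in 7 members they stand on opposite sides of the controls.

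Partners of the complexes outside the 36 were read from a list of 31, of which 27 were measured. This list and those below were chosen with earlier results of these data known. Their shares are therefore no independent test against all genes. In the Jmjd2b knockdown 5 rose and 5 fell, and in the Jmjd2c knockdown 0 rose and 1 fell, with medians of 0.01 and 0.12. The called share was 37% and 3.7%, against 24.4% and 9.53% of all genes. Of the 27 partners, 23 lay above the median level, where more genes pass. With only such genes in the fit, 11 of 23 partners and 3869 of 9096 genes passed in the Jmjd2b knockdown. In the Jmjd2c knockdown 3 of 23 partners and 1937 of 9096 genes did. For Jmjd2b, 5 partners were called without control array 3 (2624 of all genes) or Jmjd2b array 2 (2747). There were 6 without control array 1 (3290), Jmjd2b array 1 (3290) or Jmjd2b array 3 (3738). Kdm2b, which brings Pcgf1 complexes to CpG islands, had 1267, 1279 and 1161 in the controls, 1713, 1927 and 2006 with Jmjd2b knocked down and 1476 and 1293 with Jmjd2c knocked down. Its Jmjd2b arrays were the highest of all, with a log2 change of 0.60 ± 0.10 (limma, adjusted p = 0.0019), and the Jmjd2c value was 0.16 ± 0.11 (adjusted p = 0.43).

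Wdr5, a subunit of both trithorax complexes and the Pcgf6 complex, had 2650, 2464 and 2510 in the controls, 1769, 1521 and 1564 with Jmjd2b knocked down and 2053 and 1522 with Jmjd2c knocked down. All 5 knockdown arrays of Wdr5 were below the controls, and it fell in both, by 0.65 ± 0.11 (limma, adjusted p = 0.0029) and 0.52 ± 0.13 (adjusted p = 0.033). The call of Wdr5 in the Jmjd2c knockdown held in 10 of 20 other settings. It was lost with array set or array type as a block, with 2 groups only, with the mean of all probe sets and within the array type. It was also lost without any single control array, Jmjd2b array 2 or Jmjd2c array 2 (-0.31). Of the other partners with the smallest p in the Jmjd2b knockdown, Foxk1 (0.74), Auts2 (0.79) and the deacetylase Hdac1 (0.20) rose, and Fbrsl1 (-0.88), Foxk2 (-0.42) and Lcorl (-0.80) fell.

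Among 7 further demethylases of the PRC2 mark and deubiquitylases of H2A, 2 fell in each knockdown, or 28.6%, against 12.9% of all genes in the Jmjd2b and 5.25% in the Jmjd2c knockdown. All 7 lay above the median level. With only such genes in the fit, 1988 of 9096 genes fell in the Jmjd2b and 1023 in the Jmjd2c knockdown. Usp3, an H2A deubiquitylase, had 571, 462 and 582 in the controls, 349, 273 and 278 with Jmjd2b knocked down and 274 and 280 with Jmjd2c knocked down. Usp3 was below all controls on all 5 knockdown arrays, with changes of -0.81 ± 0.14 (limma, adjusted p = 0.0027) and -0.91 ± 0.16 (adjusted p = 0.0092). The call of Usp3 for Jmjd2c was lost with the mean of all its probe sets (-0.27), with array set as a block, within the array type and without control array 3. Kdm6b, a demethylase of the PRC2 mark, had 566, 682 and 692 in the controls, 551, 573 and 692 with Jmjd2b knocked down and 475 and 244 with Jmjd2c knocked down. The Jmjd2c arrays of Kdm6b lay below the controls, array 2 far more than array 1. It fell there (-0.89 ± 0.24; limma, adjusted p = 0.045) and was -0.09 ± 0.21 in the Jmjd2b knockdown. The call was lost with the replicate number as a block (-0.81; limma, adjusted p = 0.091) and without any single array other than Jmjd2c array 1. Kdm6b was -1.35 without Jmjd2c array 1 and -0.43 without array 2. The X-linked Kdm6a passed in neither, and its paralog Uty fell in the Jmjd2b knockdown (-0.41 ± 0.12; adjusted p = 0.034), with a value of 0.13 where all its probe sets were averaged.

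The last list holds 45 genes known as targets of Polycomb silencing in ES cells, of which 41 were measured and 9 were above the median level in some group. In the Jmjd2b knockdown 11 rose and 2 fell, 26.8% and 4.88% of the 41, against 11.5% and 12.9% of all genes, with a median of 0.09. In the Jmjd2c knockdown 6 rose and 1 fell, 14.6% and 2.44%, against 4.28% and 5.25%, with a median of 0.07. Most of the list, 28 and 34 of the 41, did not pass. The list was chosen with earlier results of these data known, so its shares are no independent test against all genes. Cdx2, a regulator of trophectoderm and the posterior embryo, had 5.63, 5.94 and 1.14 in the controls, 331, 532 and 464 with Jmjd2b knocked down and 28.6 and 18.6 with Jmjd2c knocked down. The groups of Cdx2 were far apart, with changes of 4.48 ± 0.20 (limma, adjusted p = 7.0e-06) and 0.97 ± 0.22 (adjusted p = 0.026). With a pseudocount of 64 the second was 0.36 and did not pass (limma, adjusted p = 0.20). Sizes of these and the other dim targets depend on the pseudocount, since control values lie near or below it.

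Fgf8, a growth factor of the gastrulating embryo, had 10.1, 6.4 and 6 in the controls, 397, 597 and 263 with Jmjd2b knocked down and 141 and 121 with Jmjd2c knocked down. It rose in both, by 4.14 ± 0.25 (limma, adjusted p = 2.1e-05) and 2.65 ± 0.28 (adjusted p = 0.0018). With pseudocounts of 64 and 1, Fgf8 changed by 2.70 and 5.58 (Jmjd2b knockdown) or 1.45 and 3.99 (Jmjd2c knockdown), and all passed. The homeobox gene Msx1 rose by 2.72 ± 0.22 and 1.59 ± 0.24 and Pax6, a regulator of neural and eye development, by 1.44 ± 0.28 and 1.88 ± 0.31. Without probe sets that can detect related transcripts, Msx1 had -0.05 in the Jmjd2c knockdown.

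Further rises in the Jmjd2b knockdown were those of Eomes (2.12), Cdkn2b (1.19) and Wt1 (3.08), and Cdkn2b (0.86) and Lhx2 (0.73) rose in the Jmjd2c knockdown. Gata2, a regulator of blood and trophoblast, fell in both (-0.85 and -0.85). With array set as a block 10 targets passed in the Jmjd2b and 1 in the Jmjd2c knockdown. Without control array 1 there were 3 targets in the Jmjd2c knockdown (853 of all genes), and without control array 3 there were 4 (462 of all genes). The part of the Polycomb members in these values was not tested.

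**Figure D5:**
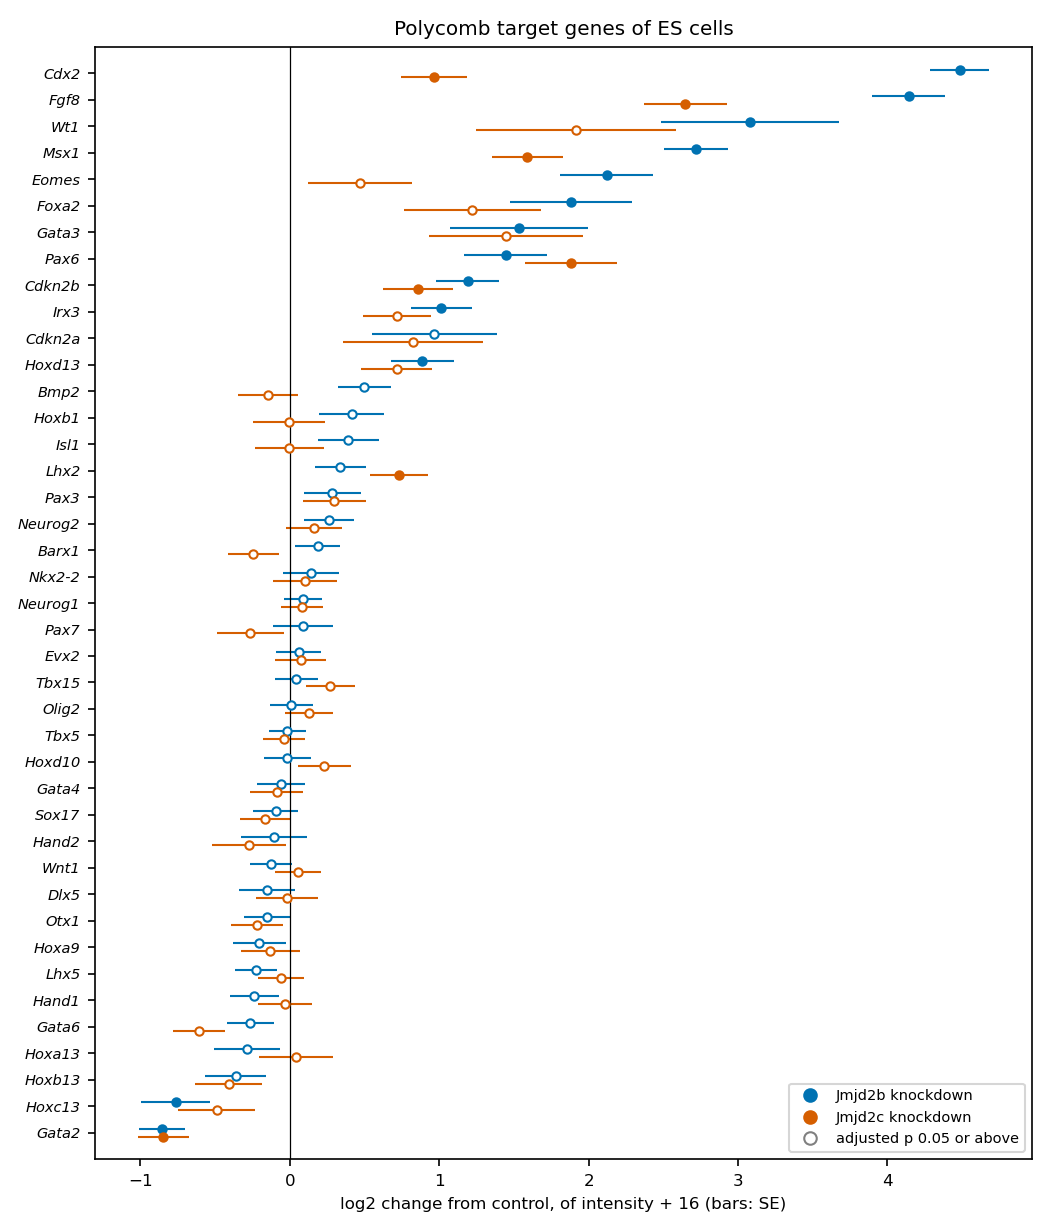
Log2 change from the control (bars: SE), on log2(intensity + 16), of the 41 measured Polycomb target genes in the Jmjd2b knockdown (blue) and the Jmjd2c knockdown (orange); filled points passed the test. Cdx2 and Fgf8 reach 4.48 and 4.14 in the Jmjd2b knockdown, and 28 of the 41 did not pass there.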

How the data were processed

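The authors deposited 1 intensity per probe set and array on a linear scale. Per the labels' protocols, biotin-labelled cRNA was made from total RNA; how probes were summarised and arrays scaled is not stated in the sources used here. Medians of the arrays were 44.7 to 46.6. The platform annotation named 34945 of 45101 probe sets with exactly 1 symbol and 932 with several, and 64 were array controls. Each gene was represented by its brightest probe set (highest mean log2 level). All tests used log2(intensity + 16), a scale on which dim genes change less. limma 3.58.1 (R 4.3.3; lmFit, eBayes with a trend) was fitted to all 8 arrays with a mean per group. The two-sided p-values were corrected over 18193 genes (Benjamini-Hochberg; threshold 0.05). The fit was tested on simulated data. Tables and figures used Python 3.11.15, pandas 2.3.3 and matplotlib 3.10.9.

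Same-numbered control and Jmjd2b arrays deviated together from their group means (correlations of 0.176, 0.111 and 0.116 over genes; -0.127 to 0.0164 for other numbers), so the replicate number was tried as a block. For the Jmjd2c arrays, only 2, the values were 0.0422 and 0.064.

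The text names all 36 members, the KDM4 target genes and, from each further list, called genes up to the 8 with the smallest p per comparison. Members and lists were chosen with earlier results of these data known. Alternatives were other pseudocounts, quantile normalization, other probe set rules, the brighter genes only, 2 groups only, blocks of replicate number, array type or array set, fits within an array type and leaving out each array. The choice of probe set by mean intensity and the fit of every probe set were added after seeing the data. RefSeq promoter windows (GRCm38.p6) were matched by gene identifier for 32 members.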

Additional observations from a re-analysis of the deposited data

Results flagged for a closer look

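The effects of the knockdowns differed by the direct test in 3 results on Polycomb members, listed partners or targets and the KDM4 genes. Cdx2, a Polycomb target, was lower in the Jmjd2c than in the Jmjd2b knockdown by a log2 difference of -3.52 (limma, adjusted p = 2.7e-04), with all arrays of the groups apart. Kdm4b was higher by 2.60 (limma, adjusted p = 0.017), as the hairpin of the Jmjd2b group is directed against it. The third brightest probe set of Mtf2 was higher by 0.70 (limma over all probe sets, adjusted p = 0.0202), while the probe set that stands for Mtf2 in the report differed by 0.09 and did not pass.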

How the results depend on the processing

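Against the control, 0 called members changed sign under any alternative run. The 9 calls in the Jmjd2b knockdown held in 17 to 20 of 20 or 21 settings each. With the replicate block, 5 PRC2 and 4 PRC1 members and 4309 genes passed. Deviations of same-numbered arrays in these groups correlated only weakly (0.176, 0.111 and 0.116), so a true pairing by number is not established. Within array types 1138 and 99 genes passed, with 1 and 0 PRC2 members, and 0 PRC1 members in the second type. Without single arrays the ranges were 2624 (without control array 3) to 5615 genes, 5 to 6 PRC2 and 4 to 6 PRC1 members.

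The Jmjd2c calls held in 6 to 12 of 19 or 20 settings. Genes called were 6 with array set as a block, 1043 with array type, 874 with 2 groups only and 0 within an array type. PRC1 members called were 0, 1, 0 and 0 in that order, and 2 with the mean of all probe sets. PRC2 members called were 0 with array set as a block, 2 groups only, within an array type, a pseudocount of 1, the replicate block, or without probe sets that detect related transcripts. Without single arrays 462 (without control array 3) to 2919 (without Jmjd2c array 1) genes, 0 to 2 PRC2 and 0 to 9 PRC1 members passed.

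Between the knockdowns 5 genes passed with array set, 4 with array type and 145 with the replicate block, 139 with the brighter genes, 2 with 2 groups only, 136 with a pseudocount of 64 and 0 within an array type. Without single arrays there were 2 (without Jmjd2b array 2) to 788 (without Jmjd2c array 1), with 0 to 2 PRC2 and 0 to 4 PRC1 members. The difference was 0.54 without Jmjd2c array 1 and -0.67 without array 2 for Cbx2, and 1.08 and -1.25 for Gata3. Uty (0.13, Jmjd2b knockdown, mean of all probe sets) and Msx1 (-0.049, Jmjd2c knockdown, without probe sets that detect related transcripts) also turned. Fits within an array type hold 3 to 5 arrays, with 1 Jmjd2b or 1 control array in an arm, and those without a Jmjd2c array leave 1 in that arm. The lone array is then assumed to vary like the other groups, so these counts say little about stability. Other causes were not tested.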
